A study of Mus musculus with 24 samples.

Results

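Cadherins, contactins and the synaptic adhesion molecules that neurexins bind were followed here in mouse retinal organoids (MROs) over 4 timepoints from D20 to D30. The 60 genes are the protein-coding mouse genes whose symbol is Cdh, Pcdh, Cntn, Cntnap, Nrxn, Nlgn or Lrrtm followed by a number, together with Dscam, Dscaml1, Sdk1 and Sdk2. The clustered protocadherins, Cdh23 and Pcdh15 were left out. They are 60 of the 46005 annotated genes with a symbol in the count tables, of which 21547 are protein-coding, and 50 of them passed the filter on low values (a base mean of 10 normalized counts) and were tested.

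Each library is 1 organoid, grown from the wild-type mouse embryonic stem cell line E14TG2a, with the genotype given as Control and water as the solvent. By the study's methods, the culture also received Matrigel, later serum, and a synthetic retinoid analog that was stopped before D20. There were 6 organoids at each of the 4 timepoints, all from 1 independent experiment and 1 cell line. The p-values below therefore measure the spread between organoids of that experiment, not between experiments. Between 13634846 and 19477108 reads were counted per organoid, so that 3 counts correspond to 0.154 to 0.22 CPM (counts relative to the total counted reads of the library). Levels are given as normalized CPM, that is CPM after scaling of the library sizes by TMM (trimmed mean of M-values), and as CPM per kb of exon where genes are compared. A gene was called higher or lower where the adjusted p of edgeR's quasi-likelihood test, after Benjamini-Hochberg correction over all 46949 tested features, was below 0.01. In such bulk samples, fewer cells of a type and less RNA per cell cannot be told apart.

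The organoids held the RNA of retinal cells at all timepoints. The summed level of 5 rod markers lay at 300.2 to 672 normalized CPM at D20 and at 2275 to 4237 at D30, and that of 5 bipolar cell markers at 26.9 to 35.2 and at 203.8 to 314. Horizontal cell markers went from 51.5 to 72.6 down to 14.6 to 25.0, and progenitor markers from 735 to 1241 down to 237 to 408. The amacrine cell sum went from 553 to 702 at D20 to 219.7 to 356 at D30. Against D20, the lower D30 level was that of Pax6, with means of 579.7 and 214. The other 4 markers had means no lower at D30 than at D20 (Gad1 10.9 and 40.3). Against D25, however, the D30 means were lower for Tfap2b (122.9 and 33.39), Tfap2a (11.04 and 3.957) and Slc6a9 (42.54 and 26.29). Gad1 alone had a higher mean at D30 than at D25 (25.61). The ganglion cell sum lay at 116 to 225 and 52.3 to 252, with Nefl at means of 83.0 and 149.5 and the other 4 markers lower at D30 (Sncg 63.4 and 2.70, Pou4f1 20.3 and 1.96). Cone markers lay at 17.6 to 40.5 and 19.8 to 51.2, and Müller glia markers at 274.5 to 380.1 and 668 to 2176. Of the lists for cells outside the neural retina, pigment epithelium lay at 2.18 to 41.5 and 22.2 to 2646, mesenchyme at 8.11 to 24.9 and 27.5 to 195, oligodendrocytes at 58.5 to 77.2 and 18.1 to 116, and endothelium at 258 to 343 and 126 to 208. The pigment epithelium sum at D30 was nearly all Ttr (mean 987), with Tyr and Pmel at means of 6.43 and 7.25 and Rpe65 and Best1 at 0.100 and 0.0830. The endothelial sum came mostly from Kdr, with a mean of 280.1 at D20 and 169 at D30, while Pecam1 stayed at means of 0.167 and 1.37. A list of 8 markers of cerebral cortex type neurons differed between organoids of the same age, from 11.9 to 265 at D30 and from 12.3 to 394.5 at D25, and its values are set beside the adhesion genes below.

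Cell adhesion molecules of these families hold neurons together and tell them apart. Classical cadherins bind like to like across the cell gap and are tied to actin through catenins. Type II cadherins and the immunoglobulin molecules of the Dscam and Sidekick families are known in the retina for matching bipolar, amacrine and ganglion cell processes within layers of the inner plexiform layer. Neurexins sit mainly on the presynaptic side and bind neuroligins and Lrrtm proteins on the postsynaptic side. Contactins are anchored to the axon membrane by a lipid and pair with contactin-associated proteins, which are relatives of the neurexins.

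Most of the change between D20 and D30 was upward. Of the 50 tested genes, 24 were called higher and 2 lower at D30 (edgeR), 48% and 4%, against 28.8% and 16.5% of the 13263 tested protein-coding genes and 26.8% of all tested features called in either direction. The median log2 fold change was 0.80 for the 50 genes and 0.15 for the protein-coding genes. All 4 Lrrtm genes, Nrxn2 and Nrxn3 rose, as did 5 of 11 tested type II cadherins, 3 of 5 contactin-associated proteins, 2 of 6 contactins, 2 of 4 delta-1 protocadherins, 2 of 5 delta-2 protocadherins, Dscaml1, Nlgn3 and Pcdh20. The 2 genes that fell were Nlgn1 and Cdh4. For 7 of the 50 genes the ranges of the 6 organoids did not overlap between D20 and D30 (Cdh9, Cntnap5a, Dscaml1, Cdh12, Cntn1, Cdh18 and Nlgn1), 14% against 32.2% of protein-coding genes.

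**Figure D1:**
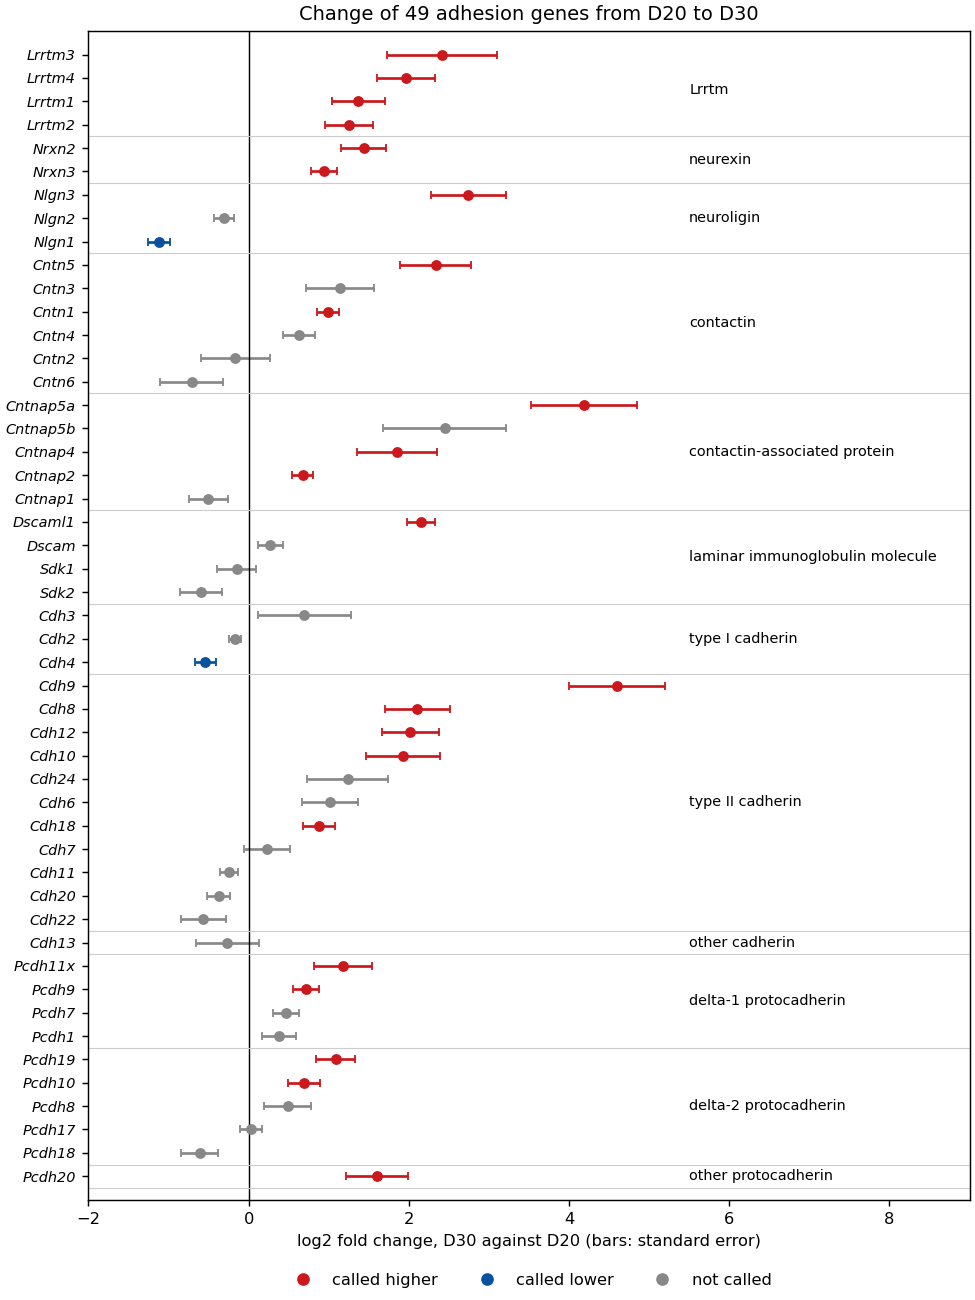
Log2 fold change of 49 of the tested adhesion genes at D30 against D20 (horizontal axis) with its standard error, grouped by family. Red points were called higher (23 genes), blue points lower (Nlgn1 and Cdh4) and grey points passed neither threshold; the 4 Lrrtm genes are all red, and Cdh9 lies farthest to the right at 4.60.

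Neurexins are presynaptic organizers. Nrxn2 was measured at 6.43, 19.5 and 29.0 normalized CPM in the lowest, median and highest organoid at D20, 11.7, 15.4 and 22.3 at D22, 26.1, 29.7 and 50.2 at D25 and 17.4, 48.8 and 72.5 at D30. The ranges of D20 and D30 overlapped through replicate 6 of D30, and the fold change was 2.70 (log2 1.43 ± 0.29 SE, adjusted p = 0.00016). Nrxn3 was at 41.0, 46.5 and 78.7 at D20, 45.5, 50.6 and 70.7 at D22, 55.6, 62.1 and 81.4 at D25 and 54.3, 105 and 123 at D30, a 1.92-fold rise (log2 0.94 ± 0.16 SE, adjusted p = 2.86e-05) that overlapped with D20 only through the highest D20 organoid.

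Neuroligins are the postsynaptic partners of neurexins, Nlgn1 being typical of excitatory and Nlgn2 of inhibitory synapses. Their 3 genes moved apart. Nlgn1 (GRCm38 chr3:25426215-26332460, minus strand) was at 165, 182 and 219.6 normalized CPM at D20, 106, 152 and 175 at D22, 83.5, 97.9 and 115 at D25 and 52.8, 89.4 and 110.4 at D30. Every D30 organoid lay below every D20 organoid, and Nlgn1 fell by 1.12 on the log2 scale (± 0.14 SE, adjusted p = 1.33e-07), the largest fall of the 50 genes. Nlgn3 (chrX:101299168-101325963, plus strand) was at 0.909, 2.88 and 8.31 at D20, 0.935, 3.37 and 5.07 at D22, 6.28, 11.2 and 28.5 at D25 and 7.21, 23.8 and 45.3 at D30. It was 6.70-fold higher at D30 (log2 2.74 ± 0.47 SE, adjusted p = 2.18e-05), with replicate 6 of D30 inside the D20 range. Of the Nlgn3 exon bases, 41.24% are shared with the readthrough gene Gm21986 on the same strand, and reads there can have been left uncounted as ambiguous. Nlgn2 was at 44.4, 58.2 and 69.5 at D20, 49.1, 53.9 and 58.7 at D22, 48.7, 59.0 and 63.8 at D25 and 34.5, 46.8 and 57.6 at D30, and its log2 difference of −0.31 ± 0.12 between D30 and D20 was not called (adjusted p = 0.0456). Per kb of exon, Nlgn1 was 57.4% ± 6.33 (SD, n = 6) of the summed neuroligin level at D20 and 37.7% ± 3.60 at D30, Nlgn3 1.61% ± 1.33 and 14.5% ± 5.08, and Nlgn2 41.0% ± 5.86 and 47.8% ± 6.51. The ranges of the D20 and D30 organoids did not overlap for the Nlgn1 and Nlgn3 shares and did for Nlgn2.

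The Lrrtm proteins, leucine-rich repeat partners of neurexins on the postsynaptic side, are low in abundance here, and all 4 rose. Lrrtm3 was at 0.280, 1.04 and 5.48 normalized CPM at D20, 0.0719, 0.417 and 2.66 at D22, 0.697, 4.36 and 12.0 at D25 and 0.942, 10.02 and 17.0 at D30, a 5.34-fold difference (log2 2.42 ± 0.69 SE, adjusted p = 0.00588). The organoids of the same age differed widely, and at D30 the highest was 18.1 times the lowest. Lrrtm4, Lrrtm1 and Lrrtm2 were 3.90-fold (adjusted p = 5.89e-05), 2.58-fold (0.00139) and 2.38-fold (0.00136) higher at D30. None of the 4 was called without the 8 organoids whose summed markers of cortex type neurons were above 100 normalized CPM, at log2 0.53 for Lrrtm1 (adjusted p = 0.482), 0.95 for Lrrtm2 (0.0953), 1.53 for Lrrtm3 (0.285) and 1.46 for Lrrtm4 (0.0302). With these markers as a covariate Lrrtm3 alone lost its call (1.66, adjusted p = 0.0166), as it did without any 1 of D20 replicates 1, 2, 3, 5 and 6 and D30 replicates 1, 2 and 4. Of Lrrtm4, 25.1% of the exon bases lie opposite a gene on the other strand, and whether the counting used the strand is not given in the sources used here.

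The immunoglobulin molecules of the inner plexiform layer split in another way, with 1 of 4 called. Dscaml1 (chr9:45426628-45753712, plus strand) was at 5.51, 6.71 and 11.4 normalized CPM at D20, 6.02, 8.91 and 11.03 at D22, 13.5, 20.0 and 22.2 at D25 and 28.3, 32.4 and 37.6 at D30. The D25 organoids all lay above the D22 organoids, the D30 organoids all above the D25 organoids, and the total rise was 4.46-fold (log2 2.16 ± 0.18 SE, adjusted p = 3.29e-11). With a coefficient of variation of 9.98% over the 6 organoids, Dscaml1 varied least of all adhesion genes with 50 or more counts at D30. Dscam was at 21.6, 25.9 and 36.1 at D20, 22.0, 29.7 and 45.2 at D22, 35.0, 45.4 and 54.8 at D25 and 24.5, 32.1 and 40.2 at D30 (log2 0.27 ± 0.16 for D30 against D20, adjusted p = 0.188). Its highest median was at D25, but neither neighbouring step was called (adjusted p = 0.031 and 0.0789). Sdk1 was at 3.99, 5.82 and 7.52 at D20, 3.49, 4.55 and 6.49 at D22, 2.93, 6.16 and 7.45 at D25 and 3.36, 4.97 and 7.59 at D30. Its log2 difference between D30 and D20, −0.15 ± 0.24, was within its error (adjusted p = 0.666). Sdk2 was at 29.4, 35.1 and 52.2 at D20, 21.8, 27.6 and 34.7 at D22, 9.63, 16.4 and 23.1 at D25 and 8.43, 23.7 and 49.5 at D30. The D25 organoids all lay below the D20 organoids, while the D30 organoids spanned 5.87-fold and overlapped with every other timepoint, and the log2 difference of −0.60 ± 0.26 for D30 against D20 was not called (adjusted p = 0.0701). Without D30 replicate 1, the highest organoid, it was −0.92 and called (adjusted p = 0.00284).

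**Figure D2:**
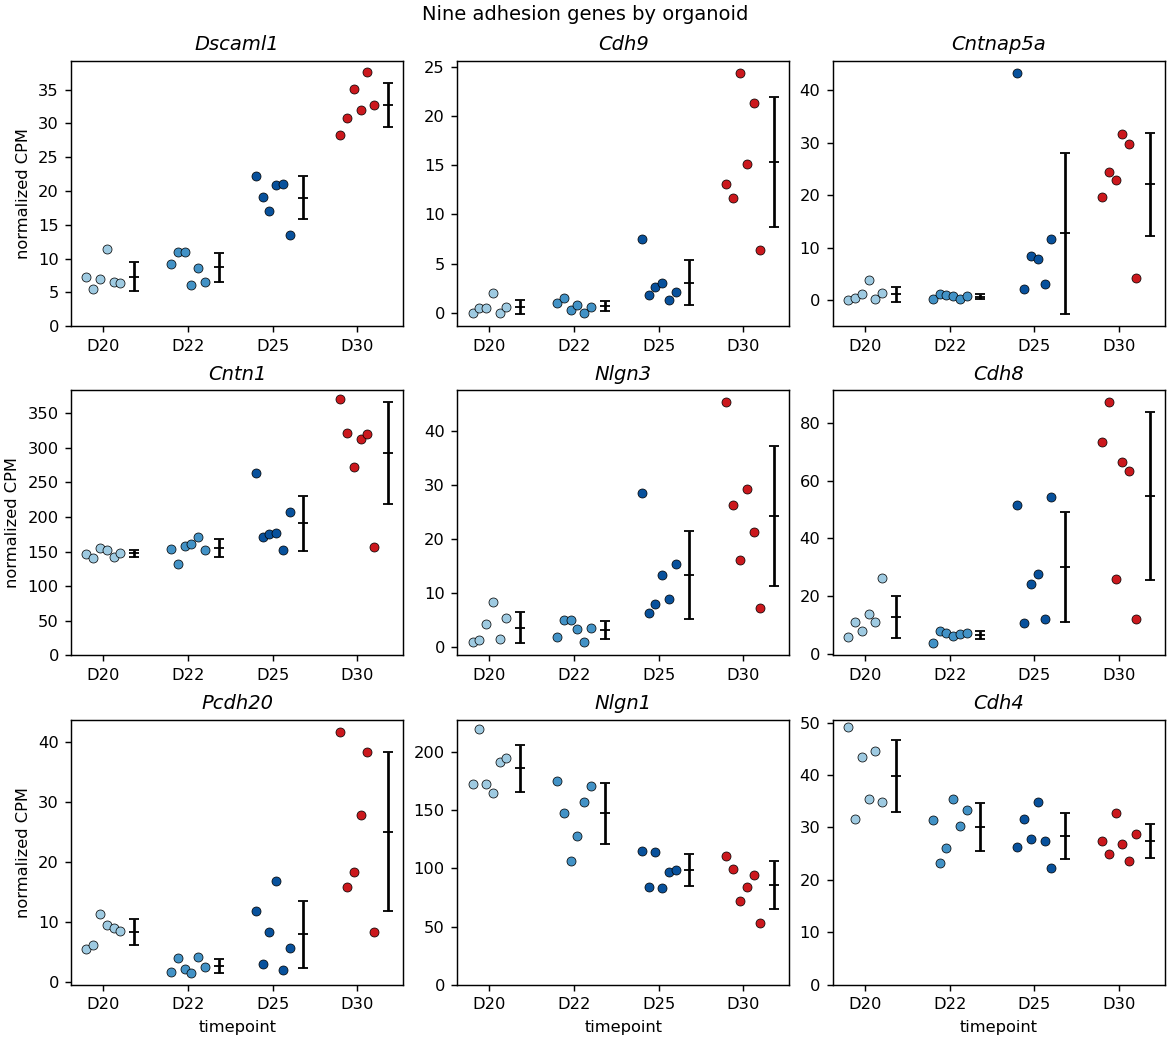
Normalized CPM (vertical axes) of 9 adhesion genes in each organoid by timepoint, in replicate order from left to right within a timepoint, with mean and SD over 6 organoids as black bars. Dscaml1 rises in tight groups, Nlgn3 and Cdh8 spread widely at D25 and D30, and Nlgn1 and Cdh4 decline.

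Contactins and contactin-associated proteins changed in some members only. Cntnap5a (chr1:115684756-116587323, plus strand) rose most, from 0.0699, 0.821 and 3.89 normalized CPM in the lowest, median and highest organoid at D20 and 0.184, 0.843 and 1.26 at D22 to 2.09, 8.14 and 43.2 at D25 and 4.21, 23.6 and 31.6 at D30. The D20 and D30 organoids did not overlap, and the fold change was 18.2 (log2 4.18 ± 0.66 SE, adjusted p = 7.41e-06). Cntn5, a contactin known from direction-selective circuits of the retina, was at 0.498, 1.16 and 4.02 at D20, 0.599, 1.09 and 3.35 at D22, 1.53, 3.93 and 7.59 at D25 and 3.49, 9.11 and 12.5 at D30. It was 5.04-fold higher at D30 (log2 2.33 ± 0.45 SE, adjusted p = 0.000108), with 1 D30 organoid inside the D20 range. Cntn1, the most abundant contactin, rose 1.98-fold (adjusted p = 7.45e-07), and every D30 organoid lay above every D20 organoid. Cntnap4 (3.61-fold, adjusted p = 0.00399) and Cntnap2 (1.59-fold, 0.000132) also rose. Cntn2, Cntn3, Cntn4, Cntn6, Cntnap1 and Cntnap5b were not called, with log2 fold changes from −0.71 (Cntn6) to 2.45 (Cntnap5b). Cntnap3 and Cntnap5c stayed under the count minimum.

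Type II cadherins held the largest single change. Cdh9 (chr15:16728756-16857094, plus strand), a cadherin of a bipolar cell type known for guiding its axon to a layer, was at 0, 0.544 and 1.98 normalized CPM at D20, 0, 0.7096 and 1.54 at D22, 1.31, 2.38 and 7.53 at D25 and 6.38, 14.1 and 24.3 at D30. The D30 organoids lay above all D20 and D22 organoids, and the fold change was 24.2 (log2 4.60 ± 0.60 SE, adjusted p = 3.46e-07). Cdh8 (chr8:99024471-99416471, minus strand), which acts in the same way in another bipolar cell type, was at 5.80, 11.02 and 26.4 at D20, 3.62, 6.98 and 7.75 at D22, 10.7, 26.0 and 54.4 at D25 and 12.0, 64.9 and 87.2 at D30 (4.31-fold, log2 2.11 ± 0.40 SE, adjusted p = 9.96e-05). The lowest D30 organoids, replicates 6 and 3, lay inside the D20 range. Cdh12 was at 1.57, 3.32 and 4.49 at D20, 1.80, 6.48 and 14.7 at D22, 7.01, 8.67 and 14.5 at D25 and 6.87, 13.7 and 16.1 at D30, a 4.05-fold rise without overlap (log2 2.02 ± 0.35 SE, adjusted p = 3.19e-05). Cdh10 (3.80-fold, adjusted p = 0.00138) and Cdh18 (1.84-fold, 0.000932) rose as well. Cdh6, Cdh7, Cdh11, Cdh20, Cdh22 and Cdh24 were not called. Cdh9, Cdh10, Cdh12 and Cdh18, 4 of the 5 that rose, lie on chromosome 15, as does Cdh6, which was not called.

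Among the type I cadherins, Cdh2 (N-cadherin), the cadherin of the neuroepithelium, was at 197, 202 and 215 normalized CPM at D20, 187, 203 and 219 at D22, 175, 191 and 207 at D25 and 155, 182 and 206 at D30. The D30 organoids overlapped with those of D20, and the log2 difference was −0.17 ± 0.08 (adjusted p = 0.0705). It was called lower only when the assembled loci were left out of the scaling and the test (log2 −0.27, adjusted p = 0.000935). Cdh4 (R-cadherin, chr2:179442431-179899373, plus strand) was at 31.6, 39.4 and 49.2 at D20, 23.2, 30.9 and 35.5 at D22, 22.3, 27.5 and 34.9 at D25 and 23.7, 27.1 and 32.7 at D30. It fell by 0.54 on the log2 scale (± 0.13 SE, adjusted p = 0.00122), and only 1 D30 organoid reached into the D20 range. Cdh3 (P-cadherin) was low throughout and not called. Cdh1 (E-cadherin) and Cdh5 (VE-cadherin), which mark epithelium and endothelium, were under the count minimum, at means of at most 18.2 and 2.33 raw counts at any timepoint. Of the others, Cdh13, the cadherin without a cytoplasmic tail, was not called.

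Of the non-clustered protocadherins, which bind weakly and signal through long tails, 5 of 10 tested rose between D20 and D30 and none fell. Pcdh20 (chr14:88464743-88471396, minus strand) had its lowest median at D22: 5.45, 8.64 and 11.2 normalized CPM at D20, 1.504, 2.31 and 4.17 at D22, 1.96, 6.96 and 16.8 at D25 and 8.20, 23.0 and 41.7 at D30. All D22 organoids lay below all D20 organoids, though that step was not called (log2 −1.64, adjusted p = 0.0149), and the total rise was 3.03-fold (log2 1.60 ± 0.38 SE, adjusted p = 0.00127). It was lower at D22 and D25 than at D20 and D30 by 1.65 on the log2 scale (± 0.28 SE, adjusted p = 0.000315). Pcdh9 (1.64-fold, adjusted p = 0.000836), Pcdh11x (2.26-fold, 0.00963), Pcdh10 (1.61-fold, 0.00652) and Pcdh19 (2.12-fold, 0.000757) rose between D20 and D30. Without the 8 organoids high in cortex type neuron markers none of the 5 was called, and the log2 fold change was 0.016 for Pcdh10 (adjusted p = 0.975) in place of 0.69, 0.21 for Pcdh9 (0.413) in place of 0.72, 0.69 for Pcdh20 (0.303), 1.08 for Pcdh11x (0.0800) and 0.98 for Pcdh19 (0.0511). Pcdh11x was also lost in 16 of the 24 fits without 1 organoid and Pcdh10 in 8. Pcdh1, Pcdh7, Pcdh8, Pcdh17 and Pcdh18 were not called with all organoids, with log2 fold changes from −0.61 for Pcdh18 to 0.49 for Pcdh8.

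Promoter sequence was read for 38 of the 60 genes, those with an entry in RefSeq (build GRCm38.p6), as the 250 bases before each listed start. Of the genes described above, 3 are shown: Lrrtm4, which rose, Pcdh20, which dipped and rose, and Nlgn1, which fell. Their windows hold no annotated exon base and lie at chr6:80018627-80018876 on the plus strand (Lrrtm4), chr14:88471397-88471646 on the minus strand (Pcdh20) and chr3:26153987-26154236 on the minus strand (Nlgn1). The Lrrtm4 and Pcdh20 windows border the annotated start of the gene. The Nlgn1 window belongs to a start inside the gene, which spans chr3:25426215-26332460, and not to its annotated 5′ end. Each is written 5′ to 3′, and capitals mark the E-box CAGCTG.
Lrrtm4: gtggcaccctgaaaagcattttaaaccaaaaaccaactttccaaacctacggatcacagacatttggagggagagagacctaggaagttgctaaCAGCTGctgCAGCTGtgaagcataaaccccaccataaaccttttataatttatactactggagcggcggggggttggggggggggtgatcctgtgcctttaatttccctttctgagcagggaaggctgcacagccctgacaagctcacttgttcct
Pcdh20: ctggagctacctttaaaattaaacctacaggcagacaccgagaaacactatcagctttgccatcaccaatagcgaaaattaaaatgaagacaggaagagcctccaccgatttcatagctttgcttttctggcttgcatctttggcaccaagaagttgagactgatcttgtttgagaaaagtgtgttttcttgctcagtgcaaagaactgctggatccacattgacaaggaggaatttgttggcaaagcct
Nlgn1: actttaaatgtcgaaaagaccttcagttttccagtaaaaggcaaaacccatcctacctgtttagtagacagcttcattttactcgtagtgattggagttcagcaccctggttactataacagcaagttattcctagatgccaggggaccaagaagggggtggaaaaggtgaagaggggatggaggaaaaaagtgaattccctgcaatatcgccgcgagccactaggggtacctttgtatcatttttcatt
Both strands of every window were searched for CAGCTG, an E-box read by basic helix-loop-helix factors and its own reverse complement, and for TAATCC, a core read by homeodomain factors of photoreceptors and bipolar cells. The motifs do not overlap. The Lrrtm4 window shown holds CAGCTG at 156 and 147 bases before the start, and the Pcdh20 and Nlgn1 windows shown hold neither string. Another listed Lrrtm4 start, not shown, has CAGCTG 40 bases before it. CAGCTG is in 16.7% of the 24 windows of genes that rose, in 16% of the 50 windows of all adhesion genes and in 13% of all 32851 promoter windows. TAATCC is in 4.17%, 6% and 6.25%. The shares of the adhesion genes are within a few windows of those of all promoters, and the letters alone do not show a bound site.

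The change was uneven over time. From D20 to D22 none of the 50 genes was called by edgeR, where 2.89% of protein-coding genes were called higher and 0.912% lower (1.9% of all features in either direction). At an unadjusted p under 0.05 there were 1 higher and 10 lower, and DESeq2 called 0 higher and 3 lower (Pcdh20, Cdh20 and Cntn2). Cntn2, an axonal contactin, came closest, from 16.7 to 4.24 normalized CPM in the median organoid (log2 −1.92, adjusted p = 0.0102).

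From D22 to D25, 7 genes were called higher and 1 lower, 14% and 2% against 8.66% and 3.02% of protein-coding genes (5.28% of all features). Among them were Cntnap5a (log2 4.15 ± 0.69 SE), Cntnap4 (2.27 ± 0.54), Cdh8 (2.22 ± 0.41), Nlgn3 (2.05 ± 0.46), Pcdh20 (1.58 ± 0.41) and Dscaml1 (1.12 ± 0.17), with adjusted p from 6.8e-05 (Dscaml1) to 0.00966 (Pcdh20), and Nlgn1 (−0.58 ± 0.14, adjusted p = 0.00552). The calls of Cntnap5a, Cdh8 and Dscaml1 held when any of the 24 organoids was left out. Of the 7 rises, Dscaml1 alone was also called without the 8 organoids high in cortex type neuron markers and with these markers as a covariate. Cdh8 was then at log2 1.28 (adjusted p = 0.0139) and 0.94 (0.0306), and Cntnap5a at 2.66 (0.0332) and 2.07 (0.0158). Protein-coding genes called higher went from 1148 to 279 and 575 under these alternatives, and those called lower from 401 to 67 and 263. Nlgn3 was not called without D22 replicate 1 or 5 or D25 replicate 1 (adjusted p up to 0.0167). Cntnap4 and Nlgn1 were each lost in 7 such fits (adjusted p up to 0.0172 and 0.0216), and Pcdh20 in 18, with up to 0.0496 without D25 replicate 4.

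From D25 to D30, 4 genes were called higher and 0 lower (edgeR), against 5.35% and 3.03% of protein-coding genes (3.51% of all features). These 4 genes, 8% of the 50, were Cdh9 (log2 2.31 ± 0.52 SE, adjusted p = 0.00405), Pcdh20 (1.66 ± 0.38, 0.00551), Dscaml1 (0.79 ± 0.17, 0.00254) and Cntn1 (0.61 ± 0.13, 0.00342). At an unadjusted p under 0.05, 18 were higher and 2 lower, and DESeq2 called 5 and 0. The count fell to 1 when D25 replicate 2, 3, 5 or 6 was left out and to 2 without D30 replicate 1 or 5, and it rose to 8 without D30 replicate 6. Without the 8 organoids high in cortex type neuron markers none of the 4 was called (adjusted p from 0.0933 to 0.346). Protein-coding genes called higher went from 710 to 128 there, and those called lower from 402 to 232.

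Of D22 and D25 together against D20 and D30 together, Pcdh20 alone was called (0 higher and 1 lower with edgeR, against 2.51% and 2.68% of protein-coding genes and 2.48% of all features). At an unadjusted p under 0.05 there were 1 higher and 20 lower, and DESeq2 called 0 and 4. Without D30 replicate 6, edgeR called 7 lower, Cdh8, Pcdh1, Cntn2, Cdh22, Cntn1 and Pcdh9 joining Pcdh20.

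In the order of levels per kb of exon, at D20, Cdh2 led with 25.2 ± 0.84 normalized CPM per kb (SD, n = 6), followed by Cntn1 (15.6 ± 0.57), Nlgn1 (13.9 ± 1.51), Cdh11 (13.5 ± 1.24) and Pcdh9 (11.48 ± 2.07). Cdh2 and Cntn1 did not overlap, while Cntn1, Nlgn1, Cdh11 and Pcdh9 each overlapped with the next. At D22 the same order held for Cdh2 (25.1), Cntn1 (16.4), Nlgn1 (10.98), Cdh11 (10.8) and Pcdh9 (9.67). At D25 it was Cdh2 (23.9), Cntn1 (20.3), Pcdh9 (13.0), Cdh11 (10.8) and Nlgn2 (9.96), and Cdh2 and Cntn1 then overlapped. At D30, Cntn1 stood at 31.0 ± 7.77, Cdh2 at 22.4 ± 2.38, Pcdh9 at 18.9 ± 5.63, Cntnap2 at 12.3 ± 2.101 and Cdh11 at 11.46 ± 1.94, each overlapping with the next. The highest D25 organoid held 8.57 of Nlgn1, below every D20 organoid, and the D30 mean was 6.39 per kb. The 5 most abundant genes held 46.6% of the summed level per kb at D20 and 40.6% at D30, and the genes at 1 normalized CPM per kb or more went from 30 to 45 of 60.

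**Figure D3:**
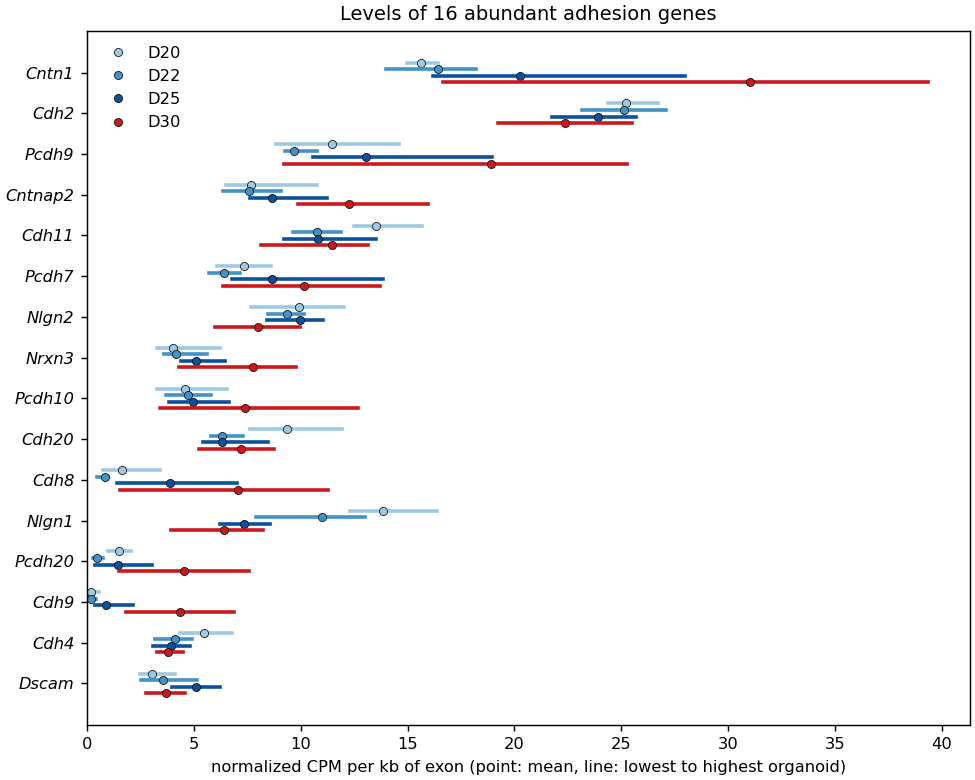
Normalized CPM per kb of exon (horizontal axis) of 16 abundant adhesion genes at each timepoint, as the mean (point) and the lowest to highest of 6 organoids (line), ordered by the D30 mean. Cdh2 stays between means of 22.4 and 25.2, Cntn1 goes from 15.6 to 31.0 and Nlgn1 from 13.9 to 6.39.

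Organoids of the same age differed more in these genes at D30 than at earlier timepoints. Over the genes with 50 or more counts on average, the median coefficient of variation was 25.4% at D20 (39 genes), 20.7% at D22 (38), 27.0% at D25 (45) and 42.5% at D30 (48). For protein-coding genes above 3 CPM it was 14.6%, 15.8%, 13.6% and 17.7%. The genes counted differ between timepoints, and the adhesion and protein-coding sets were not matched for level, so these medians are not compared like for like. Besides Dscaml1, the genes with the smallest D30 spread were Cdh2 (10.7%) and Cdh4 (11.53%), and the largest were Lrrtm3 (66.8%), Cntn6 (65.4%) and Cntn3 (60.2%). At D30 the lowest organoid was replicate 6 for 20 of the 24 genes that rose and for 17 of the 26 others, as it was for 40.6% of protein-coding genes. Replicate 6 also held the lowest D30 marker sums of Müller glia (668), ganglion cells (52.3) and oligodendrocytes (18.1). It held the highest of cones, horizontal cells and endothelium, and a pigment epithelium sum of 2471. Of the ganglion cell markers, Nefl alone was lowest in replicate 6 (42.2), and Pou4f2 was highest there (1.11). The part of these differences was not tested. At D25, replicate 1 was the highest for 19 of the 24 and 11 of the 26, against 23.8% of protein-coding genes. At D20, replicate 4 was the highest for 16 of the 24 and 6 of the 26, against 15.3%. Replicate 6 of D20, with the highest cortex type neuron marker sum of D20 (243), was the highest for 5 of the 24 and 4 of the 26. Replicate 1 of D20 was the lowest for 14 of the 24 and 7 of the 26, against 23.6%. At D22, replicate 2 was the highest for 14 of the 24 and 8 of the 26, against 18.4%. D30 replicate 1 was the highest for 11 of the 24 and 10 of the 26, against 30.3%, and held the highest Müller glia marker sum (2176), whose part in these values was not tested.

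**Figure D4:**
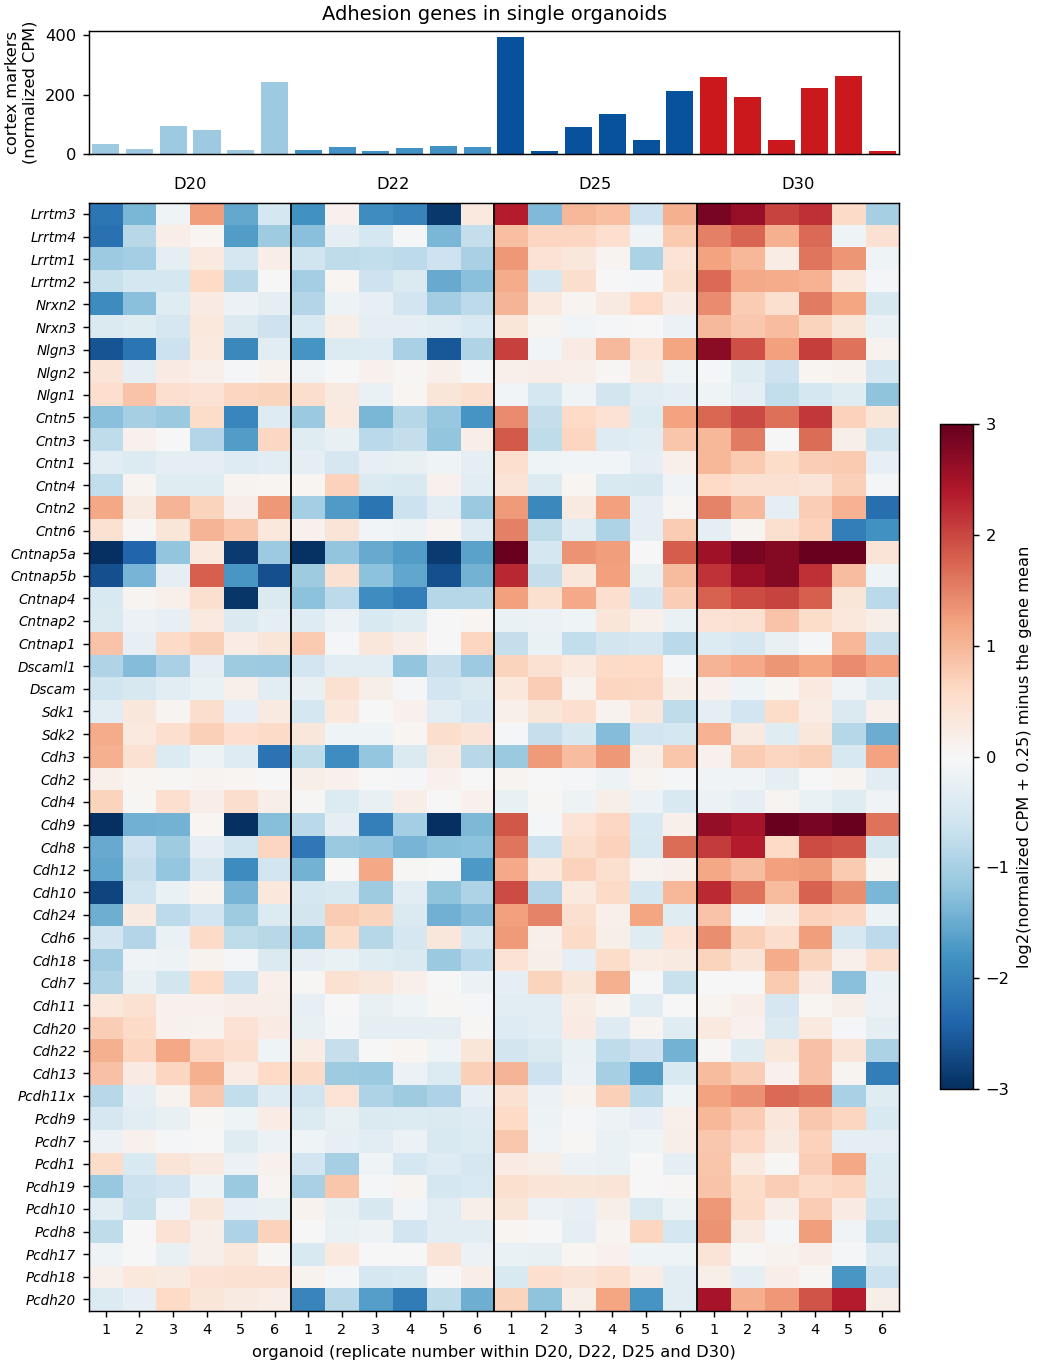
Heat map of 49 of the tested adhesion genes (rows, by family) in 24 organoids (columns), as log2(normalized CPM + 0.25) minus the mean of the gene, under bars of the summed cortex type neuron markers. The columns of D30 replicate 6 and D25 replicate 2 are paler than their neighbours in many rows where the other D30 and D25 organoids are red, and their marker bars, at 11.9 and 12.3, are the lowest of their timepoints. At D25, however, replicate 5, with a marker sum of 49.6, was the lowest for 12 of the 24 genes that rose, and replicate 2 for 7. D30 replicate 6 and D25 replicate 2 also held the lowest Müller glia and ganglion cell marker sums of their timepoints. Of the ganglion cell markers, Nefl alone was lowest in them. Pou4f2 was highest in D30 replicate 6, and Pou4f1 and Rbpms in D25 replicate 2.

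The summed level of the cortex type neuron markers moved with part of these genes. At D30 it was 259, 192, 47.5, 222, 265 and 11.9 normalized CPM in replicates 1 to 6, and at D25 394.5, 12.3, 91.4, 134, 49.6 and 212. At D20 it ranged from 15.4 to 243 and at D22 from 12.2 to 27.1, and none of the 8 markers was at 0 throughout a timepoint. The largest part came from Neurod6, a transcription factor of cortical projection neurons, with a mean of 93.7 at D30 and 0.776 in the lowest D30 organoid. The study itself names Neurod6 as a gene of postmitotic amacrine cells. How much of the sum came from amacrine cells was not tested. With the log2 of this sum as a covariate, added after the data were seen, 11 of the 50 adhesion genes were called higher with the markers at equal age (22%), against 4.7% of protein-coding genes, and 0 were called lower. Among these were Cdh8, Cdh10, Cntn1, Cntn2, Cntn3, Cntnap5a, Pcdh9, Pcdh20, Nlgn3 and Lrrtm3. Cdh8, for instance, rose by 0.47 ± 0.06 on the log2 scale for each log2 unit of the marker sum (adjusted p = 6.19e-06).

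**Figure D5:**
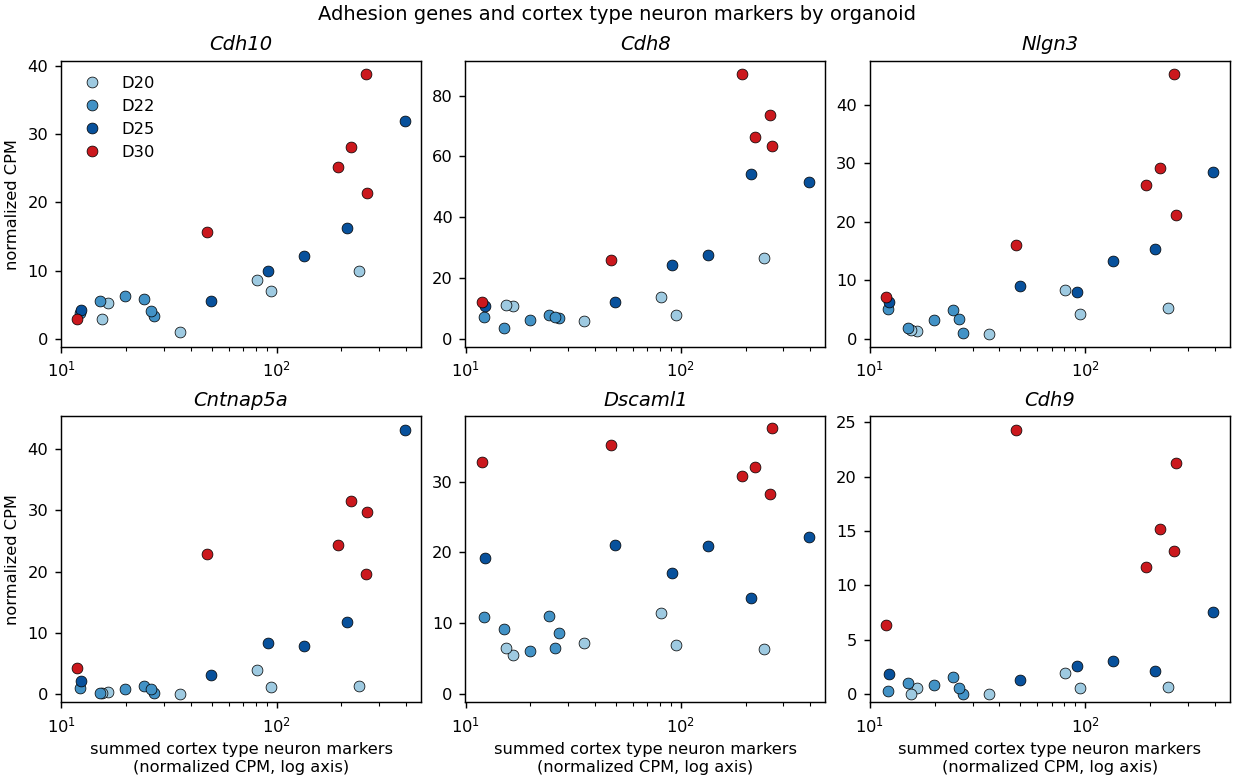
Normalized CPM of 6 adhesion genes (vertical axes) against the summed cortex type neuron markers (horizontal log axis) in each organoid, coloured by timepoint. Cdh8, Nlgn3 and Cntnap5a are highest in organoids to the right, while the D30 organoids of Dscaml1 lie between 28.3 and 37.6 at any marker level.

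With the covariate in the fit, 19 of the 24 rises between D20 and D30 were still called, and both falls. Of the 13263 tested protein-coding genes, 3504 were then called higher and 2292 lower, against 3814 and 2187 without the covariate. Leaving out the 8 organoids whose marker sum was above 100 normalized CPM left 5 D20, 6 D22, 3 D25 and 2 D30 organoids, and then 7 of the 24 rises were called, all 24 with the same sign. These were Cdh9 (log2 4.61, adjusted p = 0.000141), Cntnap5a (3.52, 0.00133), Dscaml1 (2.17, 3.41e-07), Cdh12 (1.92, 0.00634), Cdh18 (1.08, 0.00899), Cntn1 and Cntnap2. Fewer protein-coding genes were called as well, 1870 higher and 1772 lower of 13263, in place of 3814 and 2187. For 8 of the 24 the log2 fold change was less than 50% of that with all organoids, as for Cdh8 (0.93 in place of 2.11, adjusted p = 0.051), Cdh10 (0.91 in place of 1.93, 0.252) and Nrxn2 (0.59 in place of 1.43, 0.284). Nlgn3 (1.83, adjusted p = 0.0207), Cntn5 (1.97, 0.021), Cntnap4 (1.54, 0.176) and Nrxn3 (0.71, 0.024) also lost their calls, as did the fall of Cdh4 (−0.41, 0.126). For 6 of the 24 it was at least 90%. Nlgn1 fell by 1.56 in these organoids (adjusted p = 7.91e-07). Sdk2 (−1.49, adjusted p = 0.000173), Nlgn2 (−0.69, 0.00198), Cdh11 and Cdh20, which were not called with all organoids, were called lower there. With 2 organoids at D30, replicates 3 and 6, such calls rest on a spread shared with the other timepoints.

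The genes that work with these molecules were followed as a list of 58 partners, of which 57 were tested and Cbln4 was not. Of the 57, 31 were called higher and 1 lower at D30 against D20 (54.4% and 1.75%, with a median log2 fold change of 0.63), against 28.8% and 16.5% of protein-coding genes and 26.8% of all tested features. In the steps to D22, D25 and D30, 3, 10 and 4 were called higher (5.26%, 17.54% and 7.02%, against 2.89%, 8.66% and 5.35% of protein-coding genes) and 0 lower, and in D22 and D25 against D20 and D30, 2 were higher and 2 lower (3.51% each, against 2.51% and 2.68%). By role, 8 of 14 receptor phosphatases and their ligands rose between D20 and D30, 6 of 10 scaffolds, 6 of 11 other synaptic adhesion molecules, 5 of 9 tested extracellular partners of neurexins, 3 of 6 contactin partners and 3 of 7 catenins and adaptors. Slitrk3, a ligand of receptor phosphatases at inhibitory synapses, went from 0.280, 1.67 and 4.55 normalized CPM at D20 to 3.55, 15.7 and 25.4 at D30 (7.95-fold, log2 2.99 ± 0.47 SE, adjusted p = 6.16e-06). Ptprz1, a phosphatase that binds contactins, went from 11.03, 33.0 and 132 to 49.4, 327 and 626 (6.26-fold, log2 2.65 ± 0.50, adjusted p = 9.12e-05). Cbln2, a secreted bridge between neurexins and postsynaptic receptors, went from 0, 1.46 and 3.43 to 1.63, 8.29 and 16.4 (5.95-fold, adjusted p = 0.000645), and Clstn2, a calsyntenin, from 0.537, 2.05 and 13.6 to 6.54, 28.2 and 38.9 (5.42-fold, 0.00184). At D30, Slitrk3, Ptprz1 and Clstn2 were highest in replicate 1 and lowest in replicate 6, and Cbln2 was highest in replicate 3 and lowest in replicate 5. Partner calls under the 2 alternatives on cortex type neuron markers are not given here. These 4 genes overlapped between D20 and D30. Ptprs, the 1 partner that fell, did not: it was at 439, 449 and 557 at D20 and at 234, 356 and 434 at D30 (log2 −0.47 ± 0.11 SE, adjusted p = 0.00118). The scaffold Dlg4 (PSD-95) rose 3.32-fold (adjusted p = 2.83e-11) with every D30 organoid above every D20 organoid. Ctnnb1, the catenin at the tails of classical cadherins, was not called (log2 0.05 ± 0.09, adjusted p = 0.712). Dlg4 and Ctnnb1 were named after their values had been seen.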

How the data were processed

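RNA of 24 single MROs was rRNA-depleted and sequenced single-end from strand-specific libraries. Per the labels and the study's methods, the authors trimmed reads with cutadapt (1.5), aligned them with hisat2 to GRCm38/mm10, assembled transcripts with StringTie (1.3.3) and deposited raw counts per feature from HTSeq (0.6.1). Whether counting used the strand is not given in the sources used here. Samples were grouped by the timepoint in their labels.

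From the deposited counts, those features whose base mean reached 10 were tested with edgeR 4.0.16 (TMM, quasi-likelihood, 1 fit of 24 organoids, R 4.3.3), with Benjamini-Hochberg adjustment over 46949 features and a threshold of 0.01. SEs were derived from the test statistic. On counts simulated from these libraries for D30 against D20 (45770 genes), edgeR recovered 97 of 100 genes changed by a log2 of 2 and 12 of 100 changed by a log2 of 1, with 1 false call, and DESeq2 (1.42.0) recovered 96 and 14, with 5. A change of a log2 of 1 was thus often missed in the simulation, which gave all genes 1 common spread. Genes that vary less can be called at smaller changes, as Cdh4 was at a log2 of −0.54. No organoids were repeats of each other. Symbols, exons and coordinates are from GENCODE M21 (GRCm38).

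The genes, families, partners and marker lists were chosen with earlier results of these data known. Values of every timepoint were given for the 8 largest rises and falls between D20 and D30 and the 3 largest in other comparisons, among called genes whose mean over all organoids reached 50 normalized counts, for members fixed by name (among them laminar immunoglobulin molecules, neuroligins, Cdh2 and Cdh4), and for up to 4 partners in each direction. The values of 1 gene, which enters the counts, are not reported here. Alternatives were DESeq2's test, its size factors, no filter, filterByExpr, annotated genes only, a replicate block, fits of the compared timepoints only and omission of each organoid. The 2 alternatives on cortex type neuron markers were added after seeing the data. Counting intervals and the limit of 3 counts cover counting error only, as reads carry no molecular identifiers. Figures were drawn with matplotlib 3.10.9.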

Additional observations from a re-analysis of the deposited data

Results flagged for a closer look

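Within a timepoint, an organoid was singled out where its gap to the nearest other organoid took up more of the range than Dixon's critical value for 6 samples allows. Among 76 sets of 6 organoids (19 adhesion genes at 4 timepoints), 11 were singled out, where chance gives about 1 in 20. The sets share organoids and are not independent.

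D20 replicate 4 was the highest in 5 of them. It held 1.98 normalized CPM of Cdh9 (next 0.640), 3.89 of Cntnap5a (next 1.34), 5.48 of Lrrtm3 (next 1.93), 11.4 of Dscaml1 (next 7.27) and 78.7 of Nrxn3 (next 48.8). Its cortex type neuron marker sum of 81.0 was the third highest at D20.

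D25 replicate 1 was the highest in 3, with 7.53 of Cdh9 (next 3.04), 43.2 of Cntnap5a (next 11.7) and 12.0 of Lrrtm3 (next 4.76). It also had the highest cortex type neuron marker sum of all organoids, at 394.5. The part of that sum in these values was not tested beyond the covariate and the omissions described above.

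At D22, replicate 2 was the highest for Cntn5 (3.35, next 1.37) and Nrxn3 (70.7, next 51.3), and replicate 1 was the lowest for Cdh8 (3.62, next 6.29). All D22 marker sums lay between 12.2 and 27.1.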

How the results depend on the processing

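For D30 against D20, 24 higher and 2 lower calls became 20 to 28 and 2 to 3 when single organoids were left out. Pcdh11x lost its call without any of 16 organoids (adjusted p up to 0.0334, without D30 replicate 3), Lrrtm3 (up to 0.017) and Pcdh10 (up to 0.0408) each without D20 replicate 1, 2, 3, 5 or 6 or D30 replicate 1, 2 or 4, and Cntnap4 without D30 replicate 2 or 3 (up to 0.0123). The 22 other calls held in all 24 fits. With annotated genes only, 22 were higher and 6 lower, where the median log2 fold change of annotated genes moved from 0.0987 to 0.0102. Cdh2, Cdh11, Cdh20 and Nlgn2 were the 4 added. Without the 8 organoids high in cortex type neuron markers the counts were 7 and 5, with fewer organoids as well, and with these markers as a covariate 19 and 4. Partner genes called higher ranged from 23 to 37 and lower from 1 to 2 over single omissions, with 2 lower under the replicate block and 3 with annotated genes only.

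For D22 against D20, lower calls went from 0 to 3 with DESeq2 and with the compared timepoints only, to 2 without the filter and without organoids high in cortex markers, to 1 with filterByExpr and the replicate block, and to 0 to 2 over single omissions. For D25 against D22, 7 higher calls became 12 with DESeq2, 13 without the filter, 1 with either alternative on cortex markers and 3 to 12 over single omissions. The 1 lower call became 2 with DESeq2, annotated genes only and the covariate, 3 with the compared timepoints only, 0 with filterByExpr and without the organoids high in cortex markers, and 0 to 2 over single omissions. For D30 against D25, 4 higher calls became 2 with the compared timepoints only, 0 without the organoids high in cortex markers (and then 1 lower in place of 0) and 1 to 8 over single omissions. For D22 and D25 against D20 and D30, 1 lower call became 4 with DESeq2, 2 with its size factors, without the filter and with annotated genes only, and 1 to 7 over single omissions. Where no cause is named it was not tested.

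Of 31 members followed individually from D20 to D30 under 33 alternatives, 1 value changed sign, Sdk1 with 0.26 in place of −0.15 without the organoids high in cortex markers. Organoids with the same replicate number did not deviate together (mean correlation −0.005 over 36 pairs), so the numbers do not pair them. With the replicate block, 25 were called higher and 2 lower for D30 against D20, and 5 higher for D25 against D22.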

Other observations

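Of the 10 adhesion genes under the count minimum, several had counts mainly at D30. Cntnap5c, a relative of Cntnap5a, had 0 counts in all D20 and D22 organoids and a mean of 12.7 raw counts per organoid at D30. Cdh19 went from a mean of 1.5 raw counts at D20 to 27.5 at D30 and Cntnap3 from 3 to 22.8. Cdh17 and Cdh26 reached 9.67 and 4.17, and Cdh15 and Pcdh12 stayed under 1. Cdh16, a kidney cadherin, had 0 counts in every organoid, which allows up to 0.154 to 0.22 CPM.

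The tested adhesion genes are long. Their median span in the genome was 258800 bases, against 26350 for tested protein-coding genes, and 72% against 16.3% spanned 100000 bases or more. The median was 319900 bases for the 24 that rose between D20 and D30 and 155600 for the 24 that were not called, and 19 and 15 of them spanned 100000 bases or more. The libraries are of total RNA, and the part of unspliced RNA in these counts was not tested.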
